A study of Mus musculus with 16 samples.

Results

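Skeletal muscle fibre genes were described in RNA from the mouse iWAT (inguinal white adipose tissue), a fat pad that lies under the skin near the hind leg. The 36 genes were taken from a list of proteins of the muscle fibre, and all 36 were among the 54752 gene IDs of the count table. The 16 libraries came from C57BL/6 mice labelled as females aged 90 days, 4 of each of 4 genotypes. WT animals were the controls without either allele. In Lepob/+ animals 1 of the leptin genes held the ob mutation, which lowers leptin. SOD1-G93A animals held a transgene of human SOD1 with the G93A change, a model of amyotrophic lateral sclerosis in which muscles lose their nerve supply. SOD1-G93A Lepob/+ mice carried both, and were bred by crossing Lepob/+ females with SOD1-G93A males. Both alleles were present in the whole animal, so that neither was limited to fat or to muscle. Total counts per library were 36.8 to 61.9 M, and Adipoq, the adipocyte hormone adiponectin, was at 1208 to 3261 CPM (counts scaled to a common library total) in all 16 libraries. The library labelled SOD1-G93A Lepob/+ replicate 3 had 0 counts of Xist and 1756 counts of 4 genes of the Y chromosome, against 11895 to 28034 counts of Xist and 0 of the Y-linked genes in the other 15 libraries. It held little muscle RNA, and leaving it out is given with the other libraries left out.

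A muscle fibre contracts when myosin heads pull on actin filaments, after calcium released from internal stores binds the troponin complex. Fast and slow fibres build the same machine from different genes. Among the myosin heavy chains, Myh4 is the isoform of fast type 2B fibres, Myh1 of type 2X, Myh2 of type 2A, Myh7 of slow type 1 fibres, and Myh8 is made mainly around birth. White adipocytes make few of these proteins, and counts from the fat pad are therefore a level to be set beside any muscle RNA in the sample. In bulk RNA, fewer fibres and less RNA per fibre cannot be told apart.

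The genes of the fast myosins lie side by side on chromosome 11 of GRCm38, Myh2 at chr11:67171027-67197517, Myh1 at chr11:67200052-67224575 and Myh4 at chr11:67238029-67260446, while Myh7 lies at chr14:54970684-54994626. Their coding sequences were alike, with 90.1% of aligned bases identical between Myh1 and Myh4, 91.0% between Myh1 and Myh2 and 88.2% between Myh2 and Myh4. The stretch of 60 coding bases that differed most is shown because reads here tell the isoforms apart, with the 24 positions that differ among the 3 genes in capitals. It lies in exon 27 of Myh4 (chr11:67254458-67254517), exon 29 of Myh1 (chr11:67217464-67217523) and exon 29 of Myh2 (chr11:67191348-67191407), all on the plus strand of GRCm38.
Myh4: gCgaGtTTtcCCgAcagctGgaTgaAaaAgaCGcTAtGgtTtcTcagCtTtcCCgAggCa
Myh1: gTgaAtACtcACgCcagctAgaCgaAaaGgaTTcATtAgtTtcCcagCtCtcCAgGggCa
Myh2: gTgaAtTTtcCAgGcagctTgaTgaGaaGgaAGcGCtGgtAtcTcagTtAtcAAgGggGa
In another 60 bases the 3 genes had the same letters (in Myh4, exon 12, chr11:67245718-67245777). The study's reads were pairs of 100 bases, so only a trimmed read can lie there whole. Such a read fits more than 1 place, though its mate may still place it.
Myh4, Myh1 and Myh2: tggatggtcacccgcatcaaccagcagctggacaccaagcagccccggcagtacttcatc
The authors counted reads with 1 place in the genome. Of all stretches of 100 coding bases, 10.1% in Myh1, 9.57% in Myh2 and 3.99% in Myh4 were found in another of the myosin heavy chain genes. Counts of the 3 isoforms can therefore miss unequal shares of their reads, and reads that differ from a copy at few bases may be placed on the wrong one.

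The summed level of the 36 genes set 5 libraries apart from the other 11. In Lepob/+ replicate 4 the 36 genes took 20.4% of all counts, in WT replicate 3 0.787%, in SOD1-G93A replicate 4 0.0677%, in SOD1-G93A replicate 2 0.0432% and in SOD1-G93A Lepob/+ replicate 1 0.0423%. The other 11 libraries lay between 0.0126% and 0.0174%. CPM here and below are scaled by TMM, which corrects library totals for genes that take up much of a library. On this scale the genes summed to 307703 CPM in Lepob/+ replicate 4, or 204423 CPM with the library total unscaled, since the TMM factor of this library was 0.664. They summed to 8061 CPM in WT replicate 3, 631 in SOD1-G93A replicate 4, 402 in SOD1-G93A replicate 2, 430 in SOD1-G93A Lepob/+ replicate 1 and 123 to 157 in the other 11. Each genotype therefore had 1 or 2 libraries with muscle RNA, in very unequal amounts.

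Ckm, the creatine kinase of muscle that buffers ATP, separated these libraries most plainly. It had 27625 counts in WT replicate 3 and 0, 5 and 0 in WT replicates 1, 2 and 4. Among the Lepob/+ libraries it had 799404 counts in replicate 4 and 0 in replicates 1, 2 and 3. SOD1-G93A replicates 1 to 4 had 3, 228, 0 and 1194 counts. SOD1-G93A Lepob/+ replicates 1 to 4 had 747, 0, 0 and 5. No library lay between 5 and 228 counts, and the 5 libraries over 100 counts are those described one by one below. This cut was set after the values were seen, and these libraries are not a group of the study.

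**Figure D1:**
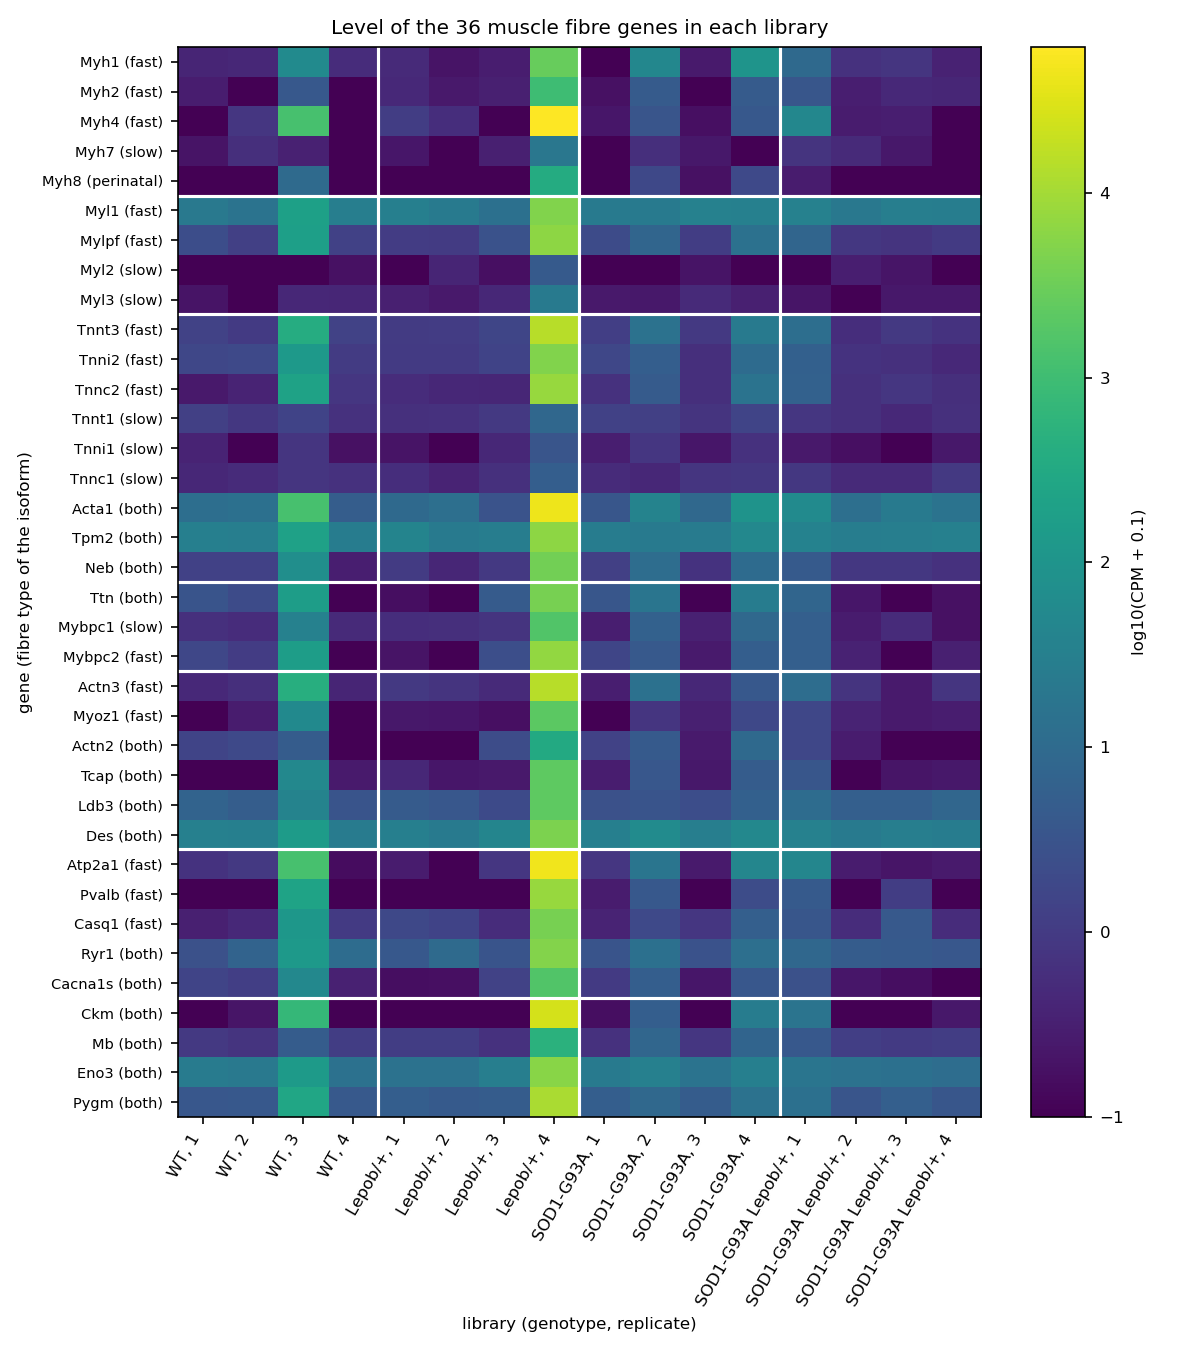
Level of each of the 36 genes (rows, grouped by role from myosin heavy chains at the top to energy metabolism at the bottom) in each of the 16 libraries (columns, by genotype and replicate), as log10(CPM + 0.1). Lepob/+ replicate 4 is brightest in every row, WT replicate 3 is next in most rows, and SOD1-G93A replicates 2 and 4 and SOD1-G93A Lepob/+ replicate 1 stand out faintly from the other 11 libraries.

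Lepob/+ replicate 4 had the highest level of all 16 libraries for 36 of 36 genes, from 4.42 times the next library for the slow troponin I gene Tnni1 to 214 times for Myh2. Compared per length of the exons, its leading genes were Acta1, the actin of skeletal muscle, at 872732 counts per kilobase, Atp2a1, the calcium pump of fast fibres, at 406207, and Myh4 at 307242. Acta1 and Atp2a1 were also the first and second of the 36 per length in WT replicate 3, at 32719 and 14367 counts per kilobase, with Myh4 at 8165. The make-up of the adult myosin heavy chains was close to the same in both. Counts of Myh4, Myh1, Myh2 and Myh7 were divided by exon length and given as shares, with Wilson 95% intervals that cover counting error only. In Lepob/+ replicate 4, Myh4 made up 94.6% (94.6 to 94.7), Myh1 4.08% (4.06 to 4.11), Myh2 1.26% (1.25 to 1.28) and Myh7 0.0216% (0.0199 to 0.0233) of 1962438 counts. In WT replicate 3, Myh4 made up 95.6% (95.4 to 95.7), Myh1 4.19% (4.02 to 4.36), Myh2 0.238% (0.202 to 0.280) and Myh7 0.0122% (0.00643 to 0.0232) of 51549 counts. The type 2B isoform thus led in both. The intervals of Myh4 and Myh2 did not overlap between the 2 libraries, while those of Myh1 and Myh7 did. The 9 counts of Myh7 in WT replicate 3 lay within the 0 to 22 of the other 11 libraries. Its share there is therefore an upper value for the muscle RNA.

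**Figure D2:**
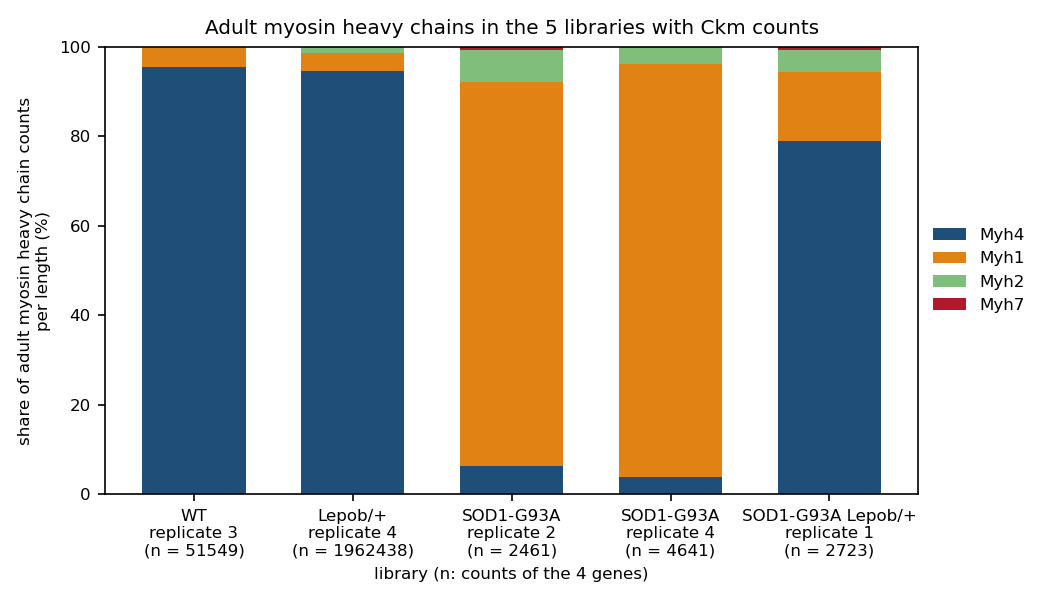
Share of the adult myosin heavy chains Myh4, Myh1, Myh2 and Myh7 (stacked bars, percent of their counts per length) in the 5 libraries with over 100 counts of Ckm, with the number of counts under each bar. Myh4 fills most of the bar in WT replicate 3, Lepob/+ replicate 4 and SOD1-G93A Lepob/+ replicate 1, and Myh1 most of it in SOD1-G93A replicates 2 and 4.

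The other 3 libraries did not share that make-up. In SOD1-G93A replicate 2, Myh1 made up 86.0% (84.6 to 87.3), Myh2 7.07% (6.17 to 8.10), Myh4 6.23% (5.31 to 7.28) and Myh7 0.664% (0.439 to 1.00) of 2461 counts. In SOD1-G93A replicate 4, Myh1 made up 92.4% (91.6 to 93.1), Myh4 3.81% (3.28 to 4.42) and Myh2 3.79% (3.30 to 4.34) of 4641 counts, with 0 counts of Myh7 (interval 0 to 0.0612). Myh1 over Myh4, both per length, was 13.8 in SOD1-G93A replicate 2 and 24.3 in SOD1-G93A replicate 4, and 0.0438 in WT replicate 3 and 0.0432 in Lepob/+ replicate 4. SOD1-G93A Lepob/+ replicate 1 lay between, with Myh4 at 79.1% (77.5 to 80.5), Myh1 at 15.3% (14.05 to 16.7), Myh2 at 4.84% (4.14 to 5.64) and Myh7 at 0.759% (0.529 to 1.09) of 2723 counts. Myh7 had 22 counts in SOD1-G93A replicate 2 and 29 in SOD1-G93A Lepob/+ replicate 1, against 0 to 22 in the other 11 libraries. Its shares in both are therefore upper values for the muscle RNA. The type 2X isoform was thus the leading myosin of both SOD1-G93A libraries with muscle RNA, and the other 2 SOD1-G93A libraries, with 0 and 9 counts of Myh1 and 6 and 4 of Myh4, gave no make-up to compare. WT, Lepob/+ and SOD1-G93A Lepob/+ had 1 library with muscle RNA each, and no test of the make-up between genotypes was run, since these libraries were picked out by their measured Ckm. Genotype cannot be told apart from which muscle a sample happened to hold.

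The counts of both myosins show how far apart the libraries were. Myh4 had 0, 32, 49123 and 0 counts in WT replicates 1 to 4 and 51, 19, 0 and 1848367 in Lepob/+ replicates 1 to 4. SOD1-G93A replicates 1 to 4 had 6, 144, 4 and 167 counts of Myh4, and SOD1-G93A Lepob/+ replicates 1 to 4 had 2109, 7, 9 and 0. Myh4 was thus over 100 counts in the same 5 libraries as Ckm. Myh1 had 14, 15, 2272 and 17 counts in WT, 20, 4, 8 and 84252 in Lepob/+, 0, 2101, 9 and 4277 in SOD1-G93A and 432, 23, 30 and 9 in SOD1-G93A Lepob/+, in the order of the replicates. SOD1-G93A replicate 4 thus had more counts of Myh1 than WT replicate 3, and far fewer of Myh4.

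Genes of the slow fibre were rare wherever muscle RNA was found. Troponin is made from a fast and a slow gene for each of its subunits, troponin I, which blocks the filament at rest, troponin T, which ties the complex to tropomyosin, and troponin C, which binds calcium. The fast gene took 99.97% of troponin I (Tnni2 against Tnni1), 99.96% of troponin T (Tnnt3 against Tnnt1) and 99.95% of troponin C (Tnnc2 against Tnnc1), per length, in Lepob/+ replicate 4. Of the exon bases of Tnnc2, 74% lie opposite Ube2c, so that its counts are uncertain. In WT replicate 3 these shares were 99.78%, 99.74% and 99.76%. They were 94.5%, 94.9% and 94.4% in SOD1-G93A replicate 2, 97.8%, 95.9% and 96.4% in SOD1-G93A replicate 4, and 98.9%, 96.0% and 91.5% in SOD1-G93A Lepob/+ replicate 1. The slow genes had counts in fat with little Ckm as well: Tnnt1 had 16 to 58 counts in the other 11 libraries, Tnnc1 11 to 40 and Tnni1 0 to 14. The 53, 51, 63 and 33 counts of Tnnt1 in WT replicate 3, SOD1-G93A replicates 2 and 4 and SOD1-G93A Lepob/+ replicate 1 lay within or just over that range, so the slow shares there are upper values for the muscle RNA. The slow light chains Myl2 and Myl3 had 131 and 724 counts in Lepob/+ replicate 4. Elsewhere Myl2 had 0 to 12 counts and Myl3 0 to 23, with WT replicate 3 at 0 and 13.

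The myosin binding proteins C, which hold the thick filament in register, gave another order. Mybpc2, the fast form, took 84.2% of the pair in Lepob/+ replicate 4 and 85.6% in WT replicate 3, and 45.3% (40.7 to 50.02) in SOD1-G93A replicate 2, 42.3% (38.4 to 46.3) in SOD1-G93A replicate 4 and 55.0% (50.7 to 59.3) in SOD1-G93A Lepob/+ replicate 1, with Mybpc1 as the rest. Mybpc1, the slow form, is known in fast fibres too. It had 1356 counts in WT replicate 3, 50276 in Lepob/+ replicate 4, 268 and 395 in SOD1-G93A replicates 2 and 4 and 251 in SOD1-G93A Lepob/+ replicate 1, against 3 to 27 in the other 11 libraries. Mybpc2 had 177 and 231 counts in SOD1-G93A replicates 2 and 4 and 245 in SOD1-G93A Lepob/+ replicate 1, against 0 to 96 in the other 11. It was thus less than 3 times the highest of the 11 there. The part of that background in these shares was not tested, and the intervals do not cover it.

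The remaining members serve the fibre at other places. Mylpf, the regulatory light chain of fast myosin, had 195731 counts in Lepob/+ replicate 4, 7063 in WT replicate 3, 336 and 630 in SOD1-G93A replicates 2 and 4 and 339 in SOD1-G93A Lepob/+ replicate 1, against 28 to 115 in the other 11 libraries. Tcap, which caps titin at the Z-disc, had 67795, 1979, 162, 207 and 158 counts in the same order, against 0 to 17. Myoz1, a Z-disc protein of fast fibres that binds calcineurin, had 65221, 2177, 30, 73 and 74, against 0 to 13. These 3 genes were above all 11 libraries in each of the 5. Casq1, the calcium store protein of fast fibres, had 122236, 4521, 79, 235 and 154, against 11 to 179, where the highest of the 11 was SOD1-G93A Lepob/+ replicate 3. Neb, the ruler of the thin filament, had 108901, 2802, 509, 453 and 193, against 8 to 59. Casq1 alone of these 5 overlapped between the 5 libraries and the other 11.

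WT replicate 3 held a profile close to that of Lepob/+ replicate 4, at a lower level. Of the 36 genes, 29 were at least 3 times the highest of the other 11 libraries in WT replicate 3, and these stood at a median of 2.61% of their CPM in Lepob/+ replicate 4. Of these 29, 27 lay within 2 times of the median. The lowest was Myh2 at 0.386% and the highest was Ttn, the spring of the sarcomere, at 4.15%. Myh4 stood at 2.06%, Myh1 at 2.095%, Acta1 at 2.91% and Ckm at 2.68%. The 7 genes that were not clear of the other libraries were the slow genes Myh7, Myl2, Myl3, Tnnt1, Tnni1 and Tnnc1 and the Z-disc gene Actn2.

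**Figure D3:**
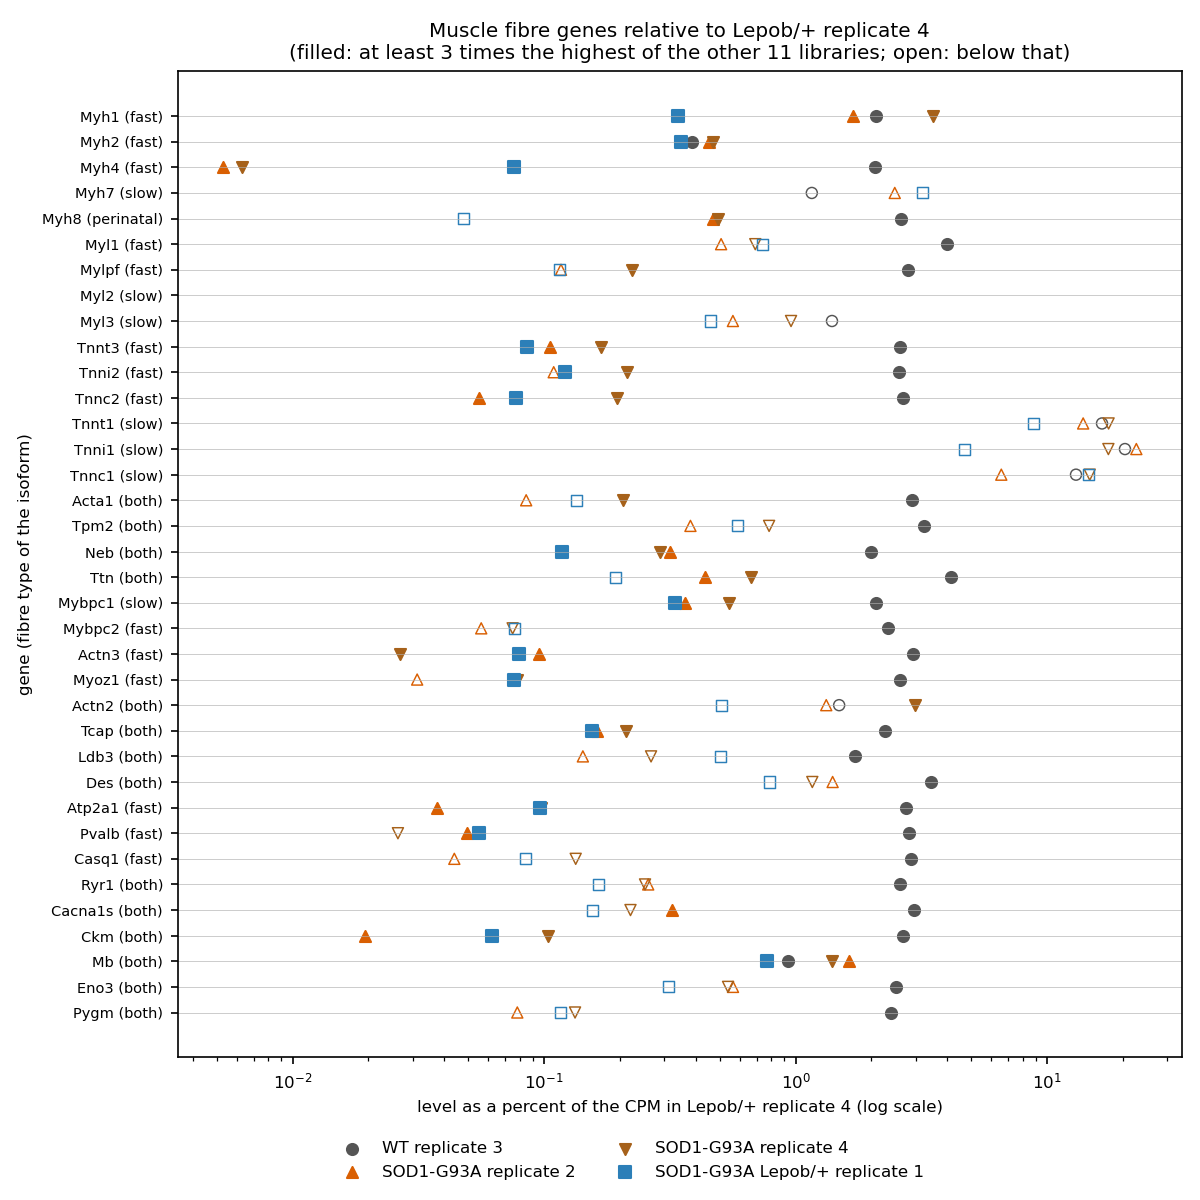
Level of each gene (rows) as a percent of its CPM in Lepob/+ replicate 4 (log axis) in the other 4 libraries with over 100 counts of Ckm. Filled symbols are at least 3 times the highest of the other 11 libraries, open symbols are below that, and a level of 0 is not drawn. WT replicate 3 forms a column near 2.61%, while Myh1 and Myh4 lie at opposite ends in SOD1-G93A replicates 2 and 4.

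The same measure spread widely in the SOD1-G93A libraries. In SOD1-G93A replicate 2, 16 genes were clear of the other 11 libraries, from Myh4 at 0.00529% of its level in Lepob/+ replicate 4 to Myh1 at 1.69%, a span of 320 times. In SOD1-G93A replicate 4, 19 genes were clear, from Myh4 at 0.00627% to Myh1 at 3.52%, a span of 562 times. Ckm stood at 0.0194% and 0.104% in these libraries. Mb, myoglobin, which stores oxygen and is rich in oxidative fibres, had 363 and 306 counts there, 15160 in Lepob/+ replicate 4, 182 in WT replicate 3 and 175 in SOD1-G93A Lepob/+ replicate 1, against 23 to 51 in the other 11. SOD1-G93A replicate 2 thus had more counts of Mb than WT replicate 3, and far fewer of Ckm. Of the exon bases of Mb, 31.9% lie opposite another gene, and the strand setting of the counting is not given in the sources used here. In SOD1-G93A Lepob/+ replicate 1, 15 genes were clear, at a median of 0.0966%, from Pvalb, a calcium buffer of fast fibres, at 0.0550% to Mb at 0.769%.

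To compare libraries that differ so much in amount, counts were also set against the fast troponins, per 1000 counts of Tnnt3 and Tnni2, with exact Poisson intervals that cover counting error only. This denominator was chosen after the values were seen. The 2 fast troponin genes summed to 588541 counts in Lepob/+ replicate 4, 19732 in WT replicate 3, 922 in SOD1-G93A replicate 2, 1519 in SOD1-G93A replicate 4 and 836 in SOD1-G93A Lepob/+ replicate 1, and to 35 to 143 in the other 11. On this scale Myh8, the perinatal myosin, stood at 83.5 (65.3 to 105) in SOD1-G93A replicate 2 and 52.0 (40.9 to 65.2) in SOD1-G93A replicate 4, and at 19.0 (18.6 to 19.3) in Lepob/+ replicate 4, 19.2 (17.3 to 21.2) in WT replicate 3 and 9.57 (4.12 to 18.9) in SOD1-G93A Lepob/+ replicate 1. With Neb in place of the troponins, Myh8 was 1.48 and 1.70 times its value in Lepob/+ replicate 4, against 4.402 and 2.74 times with the troponins. Actn3, the actinin of fast fibres, stood at 112 (94.9 to 131) in SOD1-G93A replicate 4 and 671 (605 to 744) in SOD1-G93A replicate 2, beside 749 in Lepob/+ replicate 4. For Actn3, SOD1-G93A replicate 2 was at 0.896 times Lepob/+ replicate 4 with the troponins, 0.300 with Neb and 1.12 with the adult myosins and with Acta1, so that its direction turned with the denominator, while SOD1-G93A replicate 4 was at 0.0927 to 0.163 times over the 4. Pvalb stood at 188 (159 to 221) and 59.2 (47.4 to 73.3) in SOD1-G93A replicates 2 and 4 and at 236 (201 to 276) in SOD1-G93A Lepob/+ replicate 1, below 405 in Lepob/+ replicate 4 and 437 (426 to 449) in WT replicate 3. These 3 libraries were below Lepob/+ replicate 4 with each of the other denominators too, and the intervals of SOD1-G93A replicate 2 and SOD1-G93A Lepob/+ replicate 1 overlapped.

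Genes of the nerve-muscle synapse and of the muscle regulators were read on the same scale. The muscle acetylcholine receptor changes its gamma subunit (Chrng) for the epsilon subunit after birth, and Chrng, Chrna1, Chrnd, Myog and Myod1 are known to rise in fibres that lose their nerve. Of these, Chrnd and Myog were called by DESeq2 and named by the rule for genes, and Chrng, Chrna1, Myod1 and Csrp3 were chosen after their values were seen. Chrng had 32 counts in SOD1-G93A replicate 2, 13 in SOD1-G93A replicate 4, 5 in Lepob/+ replicate 4 and 0 in the other 13 libraries. Per 1000 fast troponin counts it stood at 34.7 (23.6 to 49.3) and 8.56 (4.55 to 14.7) in the SOD1-G93A libraries and at 0.00850 (0.00276 to 0.0198) in Lepob/+ replicate 4. It stood at 0 in WT replicate 3 and SOD1-G93A Lepob/+ replicate 1, where the exact interval of a count of 0 reaches 0.187 and 4.42. Both limits lie below the intervals of the SOD1-G93A libraries, the second only just below the 4.55 of SOD1-G93A replicate 4. A level as low as that of Lepob/+ replicate 4 was not detectable in either.

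Chrnd, the delta subunit, had 43, 18 and 88 counts in SOD1-G93A replicates 2 and 4 and Lepob/+ replicate 4 and 0 in the other 13 libraries, which is 46.6 (33.5 to 63.3), 11.8 (7.004 to 18.8) and 0.150 (0.120 to 0.184) per 1000. Chrna1, the alpha subunit, stood at 72.7 (55.8 to 93.2) and 10.5 (6.01 to 17.2) in the same SOD1-G93A libraries and at 0.987 (0.909 to 1.07) in Lepob/+ replicate 4, with 5 counts in SOD1-G93A Lepob/+ replicate 1, which is no more than the highest of the other 11 libraries. Myog, myogenin, a transcription factor of muscle formation, had 65, 37, 78 and 14 counts in SOD1-G93A replicates 2 and 4, Lepob/+ replicate 4 and WT replicate 3 and 0 in the other 12, which is 70.5 (54.0 to 90.7), 24.4 (17.1 to 33.7), 0.133 (0.105 to 0.165) and 0.710 (0.388 to 1.19) per 1000. Myod1 stood at 35.8 (24.5 to 50.6) and 6.58 (3.15 to 12.1) in the SOD1-G93A libraries and 0.409 (0.359 to 0.465) in Lepob/+ replicate 4. Csrp3, a Z-disc protein rich in slow fibres and heart, stood at 55.3 (40.9 to 73.4) and 46.7 (36.3 to 59.3), beside 1.69 (1.59 to 1.80) in Lepob/+ replicate 4. These 5 genes and Chrng were highest per troponin in SOD1-G93A replicate 2, with SOD1-G93A replicate 4 next, and with Neb, Acta1 or the adult myosins as denominators the ratios to Lepob/+ replicate 4 were 6.62 or higher in both.

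**Figure D4:**
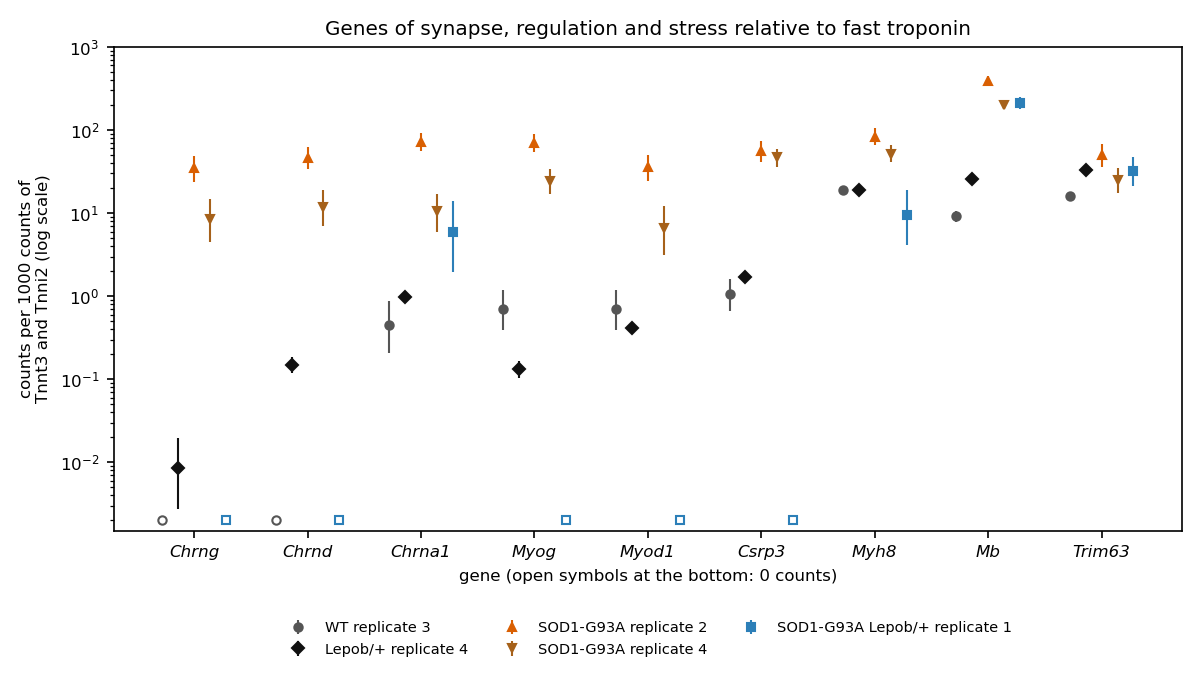
Counts per 1000 counts of Tnnt3 and Tnni2 (log axis, bars: exact Poisson 95% intervals) of 9 genes in the 5 libraries with over 100 counts of Ckm, with open symbols at the bottom for 0 counts. The 6 genes at the left lie highest in SOD1-G93A replicate 2 and SOD1-G93A replicate 4, and Trim63 lies within a few fold in all 5 libraries.

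Not all genes named for denervation and atrophy followed. Trim63, the ubiquitin ligase MuRF1, had 19621 counts in Lepob/+ replicate 4, 314 in WT replicate 3, 46 and 38 in SOD1-G93A replicates 2 and 4 and 27 in SOD1-G93A Lepob/+ replicate 1, against 0 to 5 in the other 11. Per 1000 troponin counts this is 33.3, 15.9, 49.9 (36.3 to 67.1), 25.0 (17.6 to 34.5) and 32.3 (21.2 to 47.3), in the same order. Over the 4 denominators tried, Trim63 was 0.502 to 1.88 times Lepob/+ replicate 4 in SOD1-G93A replicate 2 and 0.466 to 0.819 times in SOD1-G93A replicate 4, on both sides of 1 in the first. Fbxo32, Runx1 and Hdac4, the other leading genes of that list, had 18.4 to 34.4, 21.6 to 81.8 and 18.6 to 28.7 CPM in the other 11 libraries, and their levels in the SOD1-G93A libraries with muscle RNA lay within those ranges, so that their level in the muscle RNA could not be read. Fbxo32 was at 603 CPM in Lepob/+ replicate 4. Of the junction genes with the highest levels, Chrnb1, Colq, Lrp4 and Rapsn, all had counts in each of the other 11 libraries, and Colq had 544 to 981 counts in WT replicates 1 and 2, Lepob/+ replicate 3 and SOD1-G93A replicate 1 and 4 to 21 in the other 7 of the 11.

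Other muscle genes followed the 36. Of 38 further genes of muscle structure and metabolism, 38 were above all of the 11 libraries with 5 or fewer counts of Ckm in Lepob/+ replicate 4, 34 in WT replicate 3, 22 and 27 in SOD1-G93A replicates 2 and 4 and 18 in SOD1-G93A Lepob/+ replicate 1. Such a count was not made over all genes, here or for the 36 genes, so the lower counts have no share to be set beside. The 38 genes summed to 22368 CPM, 580, 59.5, 91.1 and 55.4 CPM in that order, against 27.7 to 42.8 in the other 11. Xirp2, an actin-binding protein of the sarcomere, had 55654, 1544, 104, 107 and 77 counts in the same order and 0 in the other 11. Myom2 of the M-band had 57041, 1285, 61, 272 and 93, against 0 to 11. Among 8 heart genes, the atrial myosin Myh6, whose sequence is close to that of Myh7, had a level of 6.41 CPM in Lepob/+ replicate 4 and 0 in the other 15, and the sum of the list was 23.7 CPM there against 13.3 to 20.5 in those 11 libraries. The 10 smooth muscle genes summed to 832 CPM in Lepob/+ replicate 4, 525 in WT replicate 3, 332 and 377 in SOD1-G93A replicates 2 and 4 and 475 in SOD1-G93A Lepob/+ replicate 1, against 377 to 790.

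The samples with muscle RNA also differed in markers of other tissues. The sum of 5 T cell genes was 431 and 241 CPM in SOD1-G93A replicates 2 and 4, and 4.29, 4.92 and 3.92 in WT replicate 3, Lepob/+ replicate 4 and SOD1-G93A Lepob/+ replicate 1, with 2.30 to 325 in the other 11. A list of 10 skin and hair genes summed to 251 CPM in SOD1-G93A replicate 4 and to 3.13 to 9.33 in the other 15 libraries, where the skin keratin Krt77 had 4762 counts in that library and 0 to 25 elsewhere. Krt10 had 4299 counts in it and 82 to 184 elsewhere. Adipocyte genes were present in all 5, with Adipoq at 1332 CPM in Lepob/+ replicate 4 and 2971 in WT replicate 3. The part of these tissues in the myosin and synapse values was not tested.

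The 11 libraries with 5 or fewer counts of Ckm gave the level of the genes in fat with little or no muscle RNA. Their summed level of 123 to 157 CPM rested largely on a few genes, and which cells made them was not tested. Tpm2, a tropomyosin that smooth muscle also makes, had 22.6 to 40.6 CPM, Des, the intermediate filament desmin of all muscle types, 22.9 to 42.7, Myl1 13.9 to 35.6, Eno3, an enolase of glycolysis, 11.6 to 29.7 and Acta1 2.96 to 23.9. Without Tpm2 and Des the sum was 71.3 to 94.7 CPM. Of the 36 genes, 26 to 32 had at least 1 count in each of these libraries. Ryr1, the calcium release channel, had 124 to 418 counts, Ldb3 of the Z-disc 80 to 329 and Pygm, the phosphorylase that frees glucose from glycogen, 125 to 278.

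Some of this background moved with lymphocyte markers. Ttn had 151, 89, 187 and 158 counts in WT replicates 1 and 2, Lepob/+ replicate 3 and SOD1-G93A replicate 1, and 0 to 5 in the other 7. Cd3e of the T cell receptor had 3359, 2152, 2973 and 2895 counts in those 4 libraries and 20 to 73 in the other 7. Mybpc2 had 80, 42, 96 and 71 counts in the same 4 and 0 to 10 elsewhere, Actn2 68, 79, 87 and 61 against 0 to 9, and Cacna1s, the voltage sensor of the T-tubule, 70, 47, 53 and 41 against 0 to 9. Ckm, Myh8 and Pvalb were at or near 0 in the same 4 libraries. SOD1-G93A replicates 2 and 4 also held 4336 and 2325 counts of Cd3e beside their 777 and 1165 counts of Ttn, 177 and 231 of Mybpc2 and 189 and 418 of Actn2, and the part of such a background in these counts was not tested.

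Promoter sequences are shown for the 2 myosins whose shares differed most, for Ckm, which marked the muscle RNA, and for Chrng. The 250 bases before the start of Myh4 (chr11:67237562-67237811) and of Myh1 (chr11:67199852-67200101), of the creatine kinase gene Ckm (chr7:19410844-19411093) and of Chrng (chr1:87205561-87205810) are given from RefSeq for GRCm38.p6, all on the plus strand and read 5′ to 3′. Capitals mark the letters CAGCTG, an E-box that muscle regulators such as MyoD and myogenin are known to bind. The motif reads the same on both strands.
Myh4: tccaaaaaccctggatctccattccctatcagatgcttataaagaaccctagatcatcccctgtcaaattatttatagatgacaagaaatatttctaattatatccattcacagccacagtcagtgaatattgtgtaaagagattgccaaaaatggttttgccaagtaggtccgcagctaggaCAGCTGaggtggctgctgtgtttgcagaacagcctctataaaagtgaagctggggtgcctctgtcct
Myh1: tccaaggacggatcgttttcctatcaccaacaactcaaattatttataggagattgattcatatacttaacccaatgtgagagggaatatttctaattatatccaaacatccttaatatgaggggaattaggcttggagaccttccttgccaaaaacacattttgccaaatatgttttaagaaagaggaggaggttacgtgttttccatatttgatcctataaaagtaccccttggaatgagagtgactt
Ckm: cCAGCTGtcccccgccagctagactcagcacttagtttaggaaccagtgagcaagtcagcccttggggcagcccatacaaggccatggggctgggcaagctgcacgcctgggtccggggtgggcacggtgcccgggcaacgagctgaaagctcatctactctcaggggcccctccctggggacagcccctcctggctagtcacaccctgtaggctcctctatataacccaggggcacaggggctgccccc
Chrng: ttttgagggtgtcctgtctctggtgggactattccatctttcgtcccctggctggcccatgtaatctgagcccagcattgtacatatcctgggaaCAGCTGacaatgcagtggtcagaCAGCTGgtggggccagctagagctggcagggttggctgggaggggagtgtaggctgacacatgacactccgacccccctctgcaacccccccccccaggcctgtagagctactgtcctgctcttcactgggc
The letters stood 67 bases before the start in Myh4, 249 before it in Ckm, and 132 and 155 before it in Chrng, and this window of Myh1 did not hold them. Tcap, Tnnt3, Myoz1, Actn3, Neb and Tnni2 had no entry. The letters were found in 13 of the 30 members with one, 43.3%, in 5 of 10 fast and 2 of 7 slow genes, and in 12.8% of all 27025 promoters of that length. Such a match describes the letters only.

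Lepob/+ mice were compared with WT mice to ask what 1 copy of the ob allele does in fat. Myl2 did not pass the filter on low counts. Of 35 genes tested, 35 were higher in Lepob/+ by group mean, with a median log2 fold change of 5.19, against 0.03 over all 19736 genes. Lepob/+ replicate 4 carried this direction. Ttn, as an example, was at 0.06, 0, 4.54 and 4034 CPM in the 4 Lepob/+ libraries and 3.11, 2.02, 168 and 0 CPM in WT. By edgeR's quasi-likelihood test with Benjamini-Hochberg adjustment 0 of 35 genes passed the threshold of 0.05, as did 0% of all genes, and DESeq2 called 0 of the 3 members it could test on all libraries. At an unadjusted p under 0.05, 13 of 35 members were higher, against 3.56% of all genes. The smallest p among the members was that of Myl3, the slow light chain, at 0.10, 0, 0.34 and 0.32 CPM in WT and 0.22, 0.15, 0.34 and 24.1 CPM in Lepob/+ (log2 fold change 5.03 ± 1.58 SE, edgeR adjusted p = 0.9997). Lepob/+ replicate 3 and WT replicate 3 had nearly the same level, and Lepob/+ replicate 4 alone lay apart. Without Lepob/+ replicate 4 the median turned to -4.80, without WT replicate 3 it was 9.81, and without both it was -0.02.

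SOD1-G93A mice were compared with WT mice to ask what the transgene does. Of 35 genes tested, 8 were higher and 27 lower by group mean in SOD1-G93A, with a median log2 fold change of -1.92, against 0.02 over all genes. By edgeR 0 passed, with 0 members at an unadjusted p under 0.05 against 2.56% of all genes and 0% past the adjusted threshold, and DESeq2 called 0 of the 16 members it could test on these genotypes. The median was -3.60 over the 14 fast and 0.20 over the 6 slow genes tested. Myh4 had the smallest p, at 0, 0.73, 1268 and 0 CPM in WT and 0.13, 3.25, 0.07 and 3.85 CPM in SOD1-G93A (log2 fold change -7.44 ± 4.28 SE, edgeR adjusted p = 0.998). Without WT replicate 3 the median of the 35 genes was 2.03, and Myh4 had a log2 fold change of 2.88. Without the 5 libraries with over 100 counts of Ckm the median of the 30 genes then tested was -0.17.

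SOD1-G93A Lepob/+ mice were compared with SOD1-G93A mice to ask what the ob allele does in the presence of the transgene. Of 35 genes tested, 6 were higher and 29 lower by group mean, with a median log2 fold change of -0.97, against 0.00048 over all genes. By edgeR 0 passed, 0 had an unadjusted p under 0.05, and 16.5% of all genes did, while 0% passed the adjusted threshold. Tnni1 had the smallest p, at 0.21, 0.74, 0.12 and 0.58 CPM in SOD1-G93A and 0.15, 0.07, 0 and 0.14 CPM in SOD1-G93A Lepob/+ (log2 fold change -2.13 ± 1.45 SE, edgeR adjusted p = 0.463). DESeq2 on these 8 libraries called 2 of 35 members, against 1780 of all 29385 genes tested. The 2 members were Eno3 (log2 fold change -0.83, DESeq2 adjusted p = 0.0319) and Ldb3 (1.11, DESeq2 adjusted p = 0.0369). For these edgeR gave -0.83 ± 1.44 SE and 1.11 ± 1.60 SE. Eno3 was at 24.3, 32.5, 15.6 and 31.1 CPM in SOD1-G93A and 18.0, 15.4, 13.3 and 11.6 CPM in SOD1-G93A Lepob/+, where the highest of the second group lay over the lowest of the first. Ldb3 was at 2.68, 3.14, 2.28 and 5.86 CPM in SOD1-G93A and 11.02, 5.64, 5.62 and 7.92 CPM in SOD1-G93A Lepob/+, where only SOD1-G93A replicate 4 overlapped. The T cell genes moved with this comparison, since 3 of the 4 SOD1-G93A libraries and none of the SOD1-G93A Lepob/+ libraries held over 1000 counts of Cd3e, and among the 11 libraries with little Ckm, Eno3 had 940 to 1263 counts in the 4 with over 1000 counts of Cd3e and 412 to 905 in the other 7. Their part in these calls was not tested.

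SOD1-G93A Lepob/+ mice were compared with Lepob/+ mice to ask what the transgene does on the ob background. Of 35 genes tested, 35 were lower by group mean, with a median log2 fold change of -8.80, against -0.06 over all genes, and Lepob/+ replicate 4 set this again. By edgeR 0 passed the adjusted threshold, as did 0% of all genes, and 33 of 35 members were lower at an unadjusted p under 0.05, against 6.28% of all genes. DESeq2 called 0 of the 3 members it could test on all libraries. Eno3 had the smallest p, at 15.4, 15.1, 29.7 and 5773 CPM in Lepob/+ and 18.0, 15.4, 13.3 and 11.6 CPM in SOD1-G93A Lepob/+ (log2 fold change -6.65 ± 1.82 SE, edgeR adjusted p = 0.597). Without Lepob/+ replicate 4 the median of the members was 0.99, with Myh4 at 46.7 CPM in SOD1-G93A Lepob/+ replicate 1 and 1.03 or less in the remaining Lepob/+ libraries. These 4 comparisons share groups, so that each library with muscle RNA counts in more than 1 of them.

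**Figure D5:**
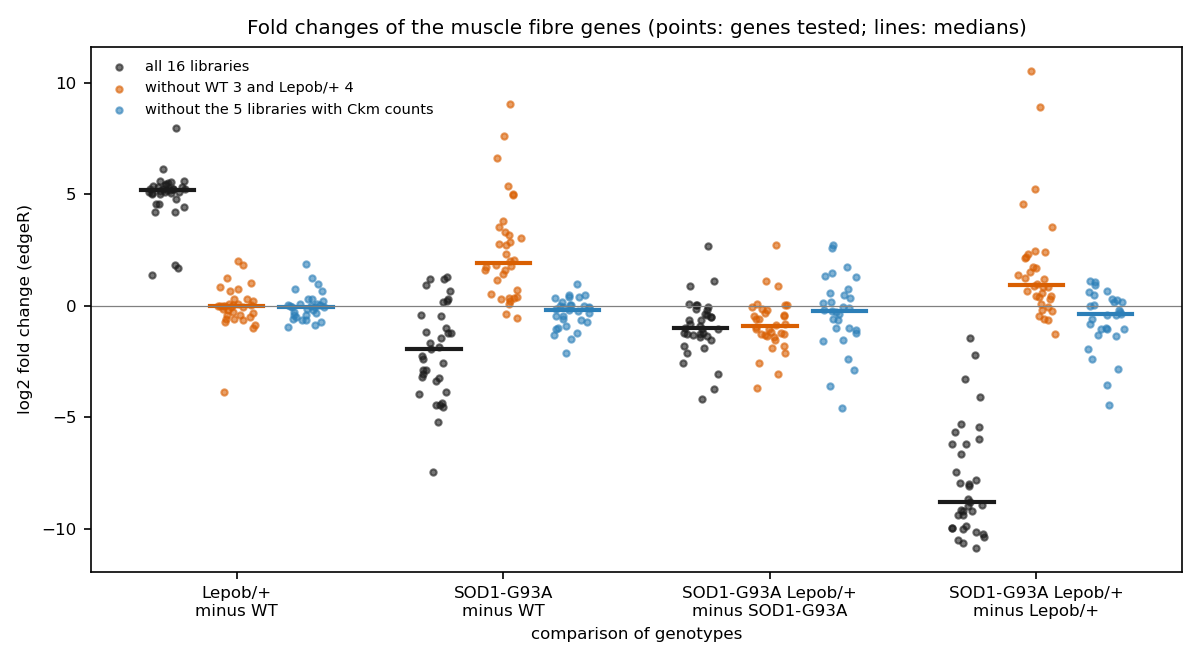
Log2 fold change by edgeR of each gene tested (points) and their median (lines) in the 4 comparisons of genotypes, with all 16 libraries, without WT replicate 3 and Lepob/+ replicate 4, and without the 5 libraries with over 100 counts of Ckm. The medians of 5.19 and -8.80 in the comparisons with Lepob/+ fall to -0.02 and 0.93 and then to -0.03 and -0.37 as libraries are left out.

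The other muscle lists were read in the same comparisons, with no test between lists. By edgeR 0 of their genes passed the adjusted threshold. Of 34 tested genes of muscle structure and metabolism, 19 had an unadjusted p under 0.05 in Lepob/+ against WT and 33 in SOD1-G93A Lepob/+ against Lepob/+, with median log2 fold changes of 5.15 and -7.89. Of 9 muscle transcription factors 5 and 6 did, with medians of 2.54 and -2.39, of 5 junction genes 2 and 3, with medians of 0.52 and -3.06, and of 11 genes of denervation and atrophy 3 and 4, with medians of 0.52 and -0.78. Of all genes, 4.37% and 8.24% had such a p in these comparisons. In SOD1-G93A against WT 0 genes of the 4 lists did, against 2.56% of all genes. In SOD1-G93A Lepob/+ against SOD1-G93A 1 junction gene and 2 genes of denervation and atrophy did, with 0 of the other lists, against 16.5% of all genes.

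DESeq2 called some genes of the muscle lists. On all libraries it called Chrnd in 4 of 4 comparisons, and Myog in both comparisons of SOD1-G93A Lepob/+. Both have 0 counts in all SOD1-G93A Lepob/+ libraries, and Chrnd in all WT libraries too, so that their counts per library above describe them better than a fold change. Colq, the collagen tail that anchors acetylcholinesterase, was called in SOD1-G93A Lepob/+ against SOD1-G93A (log2 fold change -5.34 on all libraries, DESeq2 adjusted p = 0.00981). On the compared genotypes it was also called against Lepob/+ (-4.73, DESeq2 adjusted p = 0.0272). Its counts, 682, 1008, 19 and 723 in SOD1-G93A and 15, 19, 19 and 4 in SOD1-G93A Lepob/+, were high in the libraries with over 1000 counts of Cd3e, and the part of lymphocytes in this call was not tested. Chrnb1, the beta subunit of the receptor, was called in SOD1-G93A Lepob/+ against SOD1-G93A on the compared genotypes (0.56, DESeq2 adjusted p = 0.0208).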

How the data were processed

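RNA-seq was run on 16 iWAT libraries. Per the labels and the study's methods, the authors trimmed reads with fastp (Phred 30, at least 30 bases), aligned them to mm10 with HISAT2 2.1.0 and kept reads with 1 place in the genome. The deposited values are raw counts per gene made with featureCounts 2.0.2. The strand setting and annotation release are not given in the sources used here. Coordinates are from GENCODE vM21 on GRCm38.

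The 36 members and the other lists were chosen with earlier results of these data known. Genes that passed edgeR's filter (minimum count 10, minimum total 15), 19736 in all, were TMM-scaled and tested with edgeR 4.0.16 (R 4.3.3) in 1 robust quasi-likelihood fit of all 16 libraries, with Benjamini-Hochberg adjustment over all genes and a threshold of 0.05. The SE is the absolute log2 fold change over the square root of F. DESeq2 1.42.0, other filters and scaling, a replicate block and leaving out libraries were the alternatives. The cut of 100 counts of Ckm, leaving out those 5 libraries together and the troponin denominator were chosen after seeing the data. Besides the members, genes were named from the 4 with the highest mean level of each list and those called by any tool; some of these are not reported here. The script was tested on simulated data. The labels do not say that the 4 libraries of a genotype are separate animals. The study's methods give 4 for iWAT and state that its sample sizes count animals. The p-values measure the spread between libraries. Replicate numbers did not pair the libraries.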

Additional observations from a re-analysis of the deposited data

Results flagged for a closer look

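A library was singled out where its gap to the nearest of its 4 group members, divided by the range of the group, passed Dixon's 95% critical value. For values with a normal spread, chance does this in about 1 of 20 groups. CPM near the floor need not have such a spread, and the 36 genes were chosen with earlier results of these data known. That rate therefore does not apply here, and the ratios below only describe the libraries. For the summed CPM of the 36 genes this ratio was 0.996 in WT, where WT replicate 3 lay high, 1 in Lepob/+, where Lepob/+ replicate 4 lay high, and 0.902 in SOD1-G93A Lepob/+, where SOD1-G93A Lepob/+ replicate 1 lay high. SOD1-G93A, with 2 libraries above the other 2, did not pass. Taken gene by gene, Lepob/+ replicate 4 was singled out for 36 of 36 genes, WT replicate 3 for 29 and SOD1-G93A Lepob/+ replicate 1 for 20. The same count was not made over all genes, so these counts describe the members only. Ckm, by which these libraries were picked out, is among the 36.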

How the results depend on the processing

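By edgeR, 0 of the members passed the threshold in any comparison under any of 24 settings, in which 0 genes of the other lists passed either. DESeq2 gave other counts over all genes. On all libraries it called 3 genes in Lepob/+ against WT, 4 in SOD1-G93A against WT, 549 in SOD1-G93A Lepob/+ against SOD1-G93A and 59 in SOD1-G93A Lepob/+ against Lepob/+. On the compared genotypes only it called 5, 14, 1780 and 31 of 28721, 29513, 29385 and 27956 genes tested. In SOD1-G93A Lepob/+ against SOD1-G93A, 2 of these 1780 were members, Eno3 (-0.83) and Ldb3 (1.11), where edgeR on the compared genotypes called 2 genes. The cause was not tested. DESeq2 could test 3 members in each comparison on all libraries, and 1, 16, 35 and 1 on the compared genotypes, since it gave the rest no p, adjusted or not.

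The median of the members in Lepob/+ against WT was -0.018 without both muscle-rich libraries and -0.034 without all 5 libraries over 100 counts of Ckm. In SOD1-G93A against WT it was 0.45 and 0.18 over the members DESeq2 could test, and 1.92 without both muscle-rich libraries, where Myh4 turned to 2.86. In SOD1-G93A Lepob/+ against Lepob/+ it was 0.93 without both, with 1 gene called, and -0.37 without all 5. Leaving out 1 library at a time, the median ranged from -4.80 to 9.81 in Lepob/+ against WT, from -2.60 to 2.03 in SOD1-G93A against WT, from -2.93 to -0.44 in SOD1-G93A Lepob/+ against SOD1-G93A and from -10.4 to 0.99 in SOD1-G93A Lepob/+ against Lepob/+. Genes called ranged from 0 to 0, 0 to 1, 0 to 3 and 0 to 2 in the same order, with 3 and 2 reached without SOD1-G93A Lepob/+ replicate 3. Myh4 in SOD1-G93A against WT ranged from -8.13 to 2.88, Myl3 in Lepob/+ against WT from 0.32 to 5.47.

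The replicate number as a block gave medians of 1.48, -1.41, -0.37 and -3.79 with 0 members called. Of 24 same-numbered pairs, 5 had a correlation of deviations over 0.1 and 8 one below -0.1, so the pairing has no basis in the data or the labels. The block changed no call.

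The fast share was 99.988% for the adult myosins in WT replicate 3, 99.978% in Lepob/+ replicate 4 (99.9693% with counts not divided by length), 99.3% and 100% in SOD1-G93A replicates 2 and 4 and 99.2% in SOD1-G93A Lepob/+ replicate 1. The troponin I pair gave 99.7811%, 99.9722%, 94.5% and 97.8% in the first 4 of these. The troponin T pair gave 99.7435%, 99.9594%, 94.9%, 95.9% and 96.0%, the troponin C pair 99.758%, 99.9505%, 94.4%, 96.4% and 91.5%, and the myosin binding protein C pair 85.6%, 84.2%, 45.3%, 42.3% and 55.0%. Depth limits what the 3 libraries with the fewest adult myosin counts of the 5 can show of slow genes, since fat gives counts of the slow troponins and of Myh7 as well. Fat also gave up to 96 counts of Mybpc2, so the myosin binding protein C shares of these libraries hold a background that was not separated.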

Other observations

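Markers of other tissues near the fat pad were read beside the muscle genes. The 6 tendon genes summed to 22.2 CPM in Lepob/+ replicate 4, 27.7 and 21.5 in SOD1-G93A replicates 2 and 4, 11.6 in WT replicate 3 and 9.76 in SOD1-G93A Lepob/+ replicate 1, against 5.50 to 20.8 in the other 11 libraries. The 6 genes of myelinating Schwann cells summed to 272 to 648 CPM in the 5 libraries and to 208 to 790 in the other 11, so that nerve markers did not separate them. The 8 genes of brown and beige adipocytes summed to 340 CPM in Lepob/+ replicate 4 and 73.9 to 144 in the other 4, against 50.8 to 675. The 8 genes of mammary epithelium summed to 338 to 876 CPM in the 5 and 414 to 1188 in the other 11. The 12 muscle transcription factors summed to 729 CPM in Lepob/+ replicate 4 and 191 to 232 in the other 4, against 176 to 213, the 10 junction genes to 137 and 23.8 to 43.3, against 17.2 to 40.8, and the 12 genes of denervation and atrophy to 1386 and 110 to 128, against 93.8 to 166.

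Outside the muscle lists, DESeq2 called Ucp1, the uncoupling protein of brown adipocytes, in SOD1-G93A against WT on the compared genotypes (log2 fold change 3.56, DESeq2 adjusted p = 0.0112). Fmod, fibromodulin of tendon matrix, was called in SOD1-G93A Lepob/+ against SOD1-G93A on the compared genotypes (-1.56, DESeq2 adjusted p = 0.00652), and Cox7a1, a respiratory chain subunit of muscle and brown fat, in SOD1-G93A Lepob/+ against Lepob/+ on all libraries (-3.31, DESeq2 adjusted p = 0.0352). By edgeR 0 of these passed.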
